A study of Mus musculus with 4 samples.

Results

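Cycling muscle progenitors from 2 cultures, one grown on as ordinary myoblasts and one kept in a progenitor medium, were compared gene by gene after both had been brought to the same definition of a cell. The members were chosen by their own counts: at least 3 UMIs (counted mRNA molecules) of Pax7, none of Myog, and at least 5 UMIs summed over Mki67, Top2a, Cenpf, Cdk1 and Ccnb1, in barcodes that passed a filter of 1000 UMIs, 500 genes and no more than 10% of UMIs from mitochondrial genes. This selected 3750 of the 21301 filtered cells of the series. Of these, 2904 came from the 9895 filtered cells of the progenitor culture (29.3%, exact binomial interval 28.5 to 30.3%) and 846 from the 2412 of the myoblast culture (35.1%, 33.2 to 37.0%). The rule sets lower limits for Pax7 and the cycling genes and an upper one for Myog, and does not equalise their levels between the cultures.

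Both cultures were mouse skeletal muscle cells of the genotype Pax7-nGFP, a reporter in which nuclear GFP is made under Pax7 control, and each traced back to a male mouse 16 weeks old. Myoblasts were taken at passage 2 from a medium of DMEM and F10 with 20% FBS, 10% horse serum and 10 ng/ml basic FGF. The second culture, labelled myogenic progenitor cells (MPC), spent 2 passages in that medium and 5 more in a progenitor medium. This was KnockOut DMEM with 10% FBS, 10% serum replacement, 1% GlutaMAX, 10 ng/ml basic FGF and the small molecules Forskolin (5 µM), Repsox (5 µM) and CHIR9901 (3 µM). Neither culture was described as sorted before loading on the 10x Genomics 3' chemistry. The series also held freshly isolated satellite cells and activated satellite cells 3 days after injury, of which 9 and 1637 cells met the same rule. There was 1 library per culture, so no test was possible and none was run. Medium, compounds, the 5 additional passages and library cannot be told apart.

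Satellite cells are the stem cells of skeletal muscle and are marked by the transcription factor Pax7. In culture they divide as myoblasts, and their commitment is followed by Myod1 and then by Myog, which opens terminal differentiation. Forskolin activates adenylyl cyclase and so raises cAMP, Repsox inhibits the type I receptor of TGF-beta, and inhibitors of the CHIR series act on GSK3, which stabilises beta-catenin as Wnt ligands do.

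Levels are UMIs of a gene summed over the selected cells of a culture and scaled by the culture's total to CPM. The sums held 48171415 UMIs in MPC and 23144739 in myoblasts. A ratio is the log2 of MPC over myoblast after 5 CPM were added to both, and a gene was measured when it reached 10 CPM in the higher culture. Genes at or past a 2-fold ratio are called higher or lower in MPC, with no significance attached. Over genes at 10 CPM or more, counting error moved a log2 ratio by at most 0.157 in either direction at the 95% level. These intervals cover counting error only, since cells of 1 culture are not replicates.

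The genes used for selection are a check and no finding. Pax7 stood at 989.9 CPM in MPC and 1304 in myoblasts, Mki67 at 473 and 286, Top2a at 1299 and 742, Cenpf at 303 and 278, Cdk1 at 264 and 192 and Ccnb1 at 129 and 135. The median cell had 2385 and 1272 CPM of the cycling genes together and 909.8 and 1282 CPM of Pax7, so the selected MPC cells held more cycling transcripts and fewer of Pax7. The reporter, listed as EGFP, was at 84.8 and 210 CPM. All 10 myogenic progenitor markers passed 10 CPM in MPC, and 9 of 10 did in myoblasts, where Msc was under 1 CPM. At the edges of the rule, 101 MPC cells held exactly 3 Pax7 UMIs and 65 otherwise matching cells held 2. Exactly 5 cycling-gene UMIs were found in 102 MPC and 39 myoblast cells, and 4 in 97 and 39. The Myog condition set aside 2108 otherwise matching MPC cells and 235 myoblast cells. The median selected cell held 14790.5 UMIs in MPC and 26091 in myoblasts, with 3.59 and 5.83% mitochondrial UMIs. After each cell was thinned to 10000 UMIs, which left out 376 and 13 cells, the medians were 3533 and 3484 genes per cell. MPC and myoblast cells shared 2 of their selected barcodes.

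Of 9354 measured genes, 743 were higher in MPC (7.94%) and 649 were lower (6.94%), and the median log2 ratio over all of them was 0.06. A ratio of at least 8-fold was seen for 75 genes in the direction of MPC and for 42 in the direction of myoblasts. Fewer than 1 CPM was found in the lower culture for 76 of the higher and 46 of the lower genes. Most of the called genes lay outside the 72 pathway and family lists that were examined: 461 of the 743 (62.0%) and 440 of the 649 (67.8%).

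**Figure D1:**
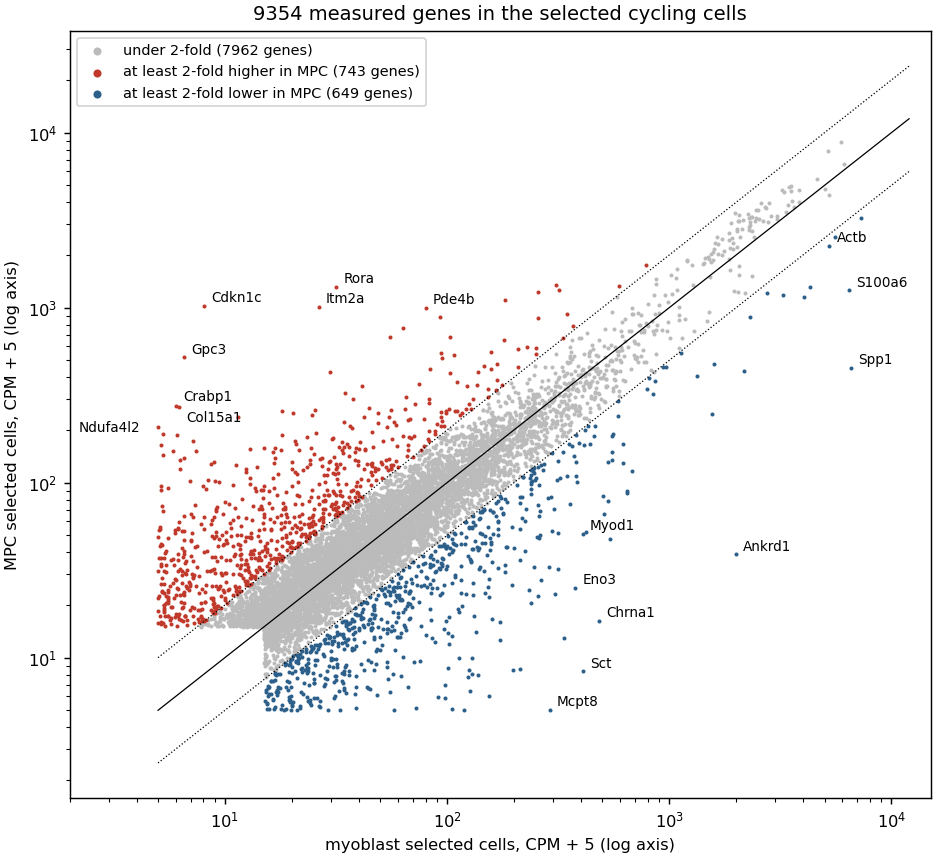
Level of each of the 9354 measured genes in the selected cells of the myoblast (horizontal) and MPC culture (vertical), as CPM + 5 on log axes. Each point is 1 gene, the solid line marks equal levels and the dotted lines a 2-fold ratio. The 743 genes higher in MPC include Cdkn1c, Gpc3 and Rora far above the band, and the 649 lower ones include Ankrd1, Sct and Mcpt8 far below it.

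The widest ratio in either direction belonged to Cdkn1c, which encodes the cyclin-dependent kinase inhibitor p57. It was at 1020 CPM in MPC (exact Poisson interval 1011 to 1029) and 3.07 in myoblasts (2.40 to 3.87), a log2 ratio of 6.99. Both values come from cells that carry cycling transcripts, and Cdkn1c UMIs were found in 90.4% of MPC and 2.52% of myoblast cells after thinning. The glypican Gpc3, a heparan sulfate proteoglycan of the cell surface, followed with 516 against 1.51 CPM. The nuclear receptor Rora was at 1309 and 26.7 CPM and was seen in 97.3 and 17.8% of thinned cells. Itm2a, which encodes a small membrane protein found in muscle progenitors, was at 1005 and 21.4 CPM, in 98.7 and 17.9% of cells. For comparison, the same genes were read in 140 other cells of the MPC library. These had 10 or more UMIs of the fibroblast markers other than Crabp1, and no Pax7 or Myog UMI. Of these, 127 had enough UMIs to be thinned, of which 40.9% held Cdkn1c, 26.8% Gpc3 and 79.5% Rora. The levels over all 140 were 48.8, 66.5 and 253 CPM. Each share lies below that in the selected cells. In 15 such cells of the myoblast library Rora was at 140 CPM, against 26.7 in its selected cells. These values are therefore not a plain measure of free RNA, and whether such cells make these genes themselves was not tested. Cdkn1c was higher still, at 4425 CPM, in 1527 differentiating MPC cells with at least 5 Myog UMIs and 100 of the myocyte markers.

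The other genes of the top 15 have varied known roles. Dlk1, an imprinted gene for a membrane protein related to Notch ligands, was at 159 and 0.173 CPM. The heparin-binding growth factor Ptn was at 183 and 1.08 CPM, and the giant cadherin Fat3 at 183 and 0.259 CPM. The guidance receptor Robo2 was at 168 and 2.20 CPM, and the basement membrane collagen Col15a1 at 264 and 1.21 CPM. Col6a1 (133 and 1.51 CPM), the scaffold gene Lin7a (130 and 1.25), the microtubule-binding calpain relative Capn6 (139 and 0.259) and the phosphodiesterase Pde3a (146 and 0.821) followed. Ndufa4l2 and Crabp1 are described with their pathways. Ndufa4l2 is one of 6 genes past 10 CPM in MPC with no UMI at all in the selected myoblast cells.

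At the other end stood Mcpt8, a mast cell protease gene, with 1 UMI in all selected MPC cells (0.0208 CPM, interval 0.000526 to 0.116) against 284 CPM in myoblasts, where 68.2% of thinned cells held it. Gzme, a granzyme, was at 0.0623 and 100.2 CPM, and Gzmd had no UMI in MPC against 52.7 CPM, at least 846-fold lower given a floor of 3 counts in MPC. Gzmd and Gzme are close paralogues, and how UMIs were divided between them is uncertain. Ankrd1, a stretch-responsive muscle gene, was at 33.9 CPM in MPC and 1992 in myoblasts. The hormone gene Sct (secretin) was at 3.34 and 404 CPM, the acetylcholine receptor subunit Chrna1 at 11.2 and 480 CPM, and the matrix protein Npnt at 7.91 and 329.6 CPM. Fgf13, an intracellular relative of the FGFs that binds sodium channels, was at 0.996 and 149 CPM. Also among the lowest 15 were Lingo2 (3.61 and 207 CPM), Dpp6 (1.45 and 122), Cdh18 (2.76 and 119), Lrrn1 (2.97 and 133) and Reln (3.11 and 124), genes best known from neurons. Adamts6, Dynap and Slc35f1 made up the rest of the lowest 15, at 3.47, 0.0415 and 0.872 CPM in MPC against 193, 114 and 92.9 CPM.

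**Figure D2:**
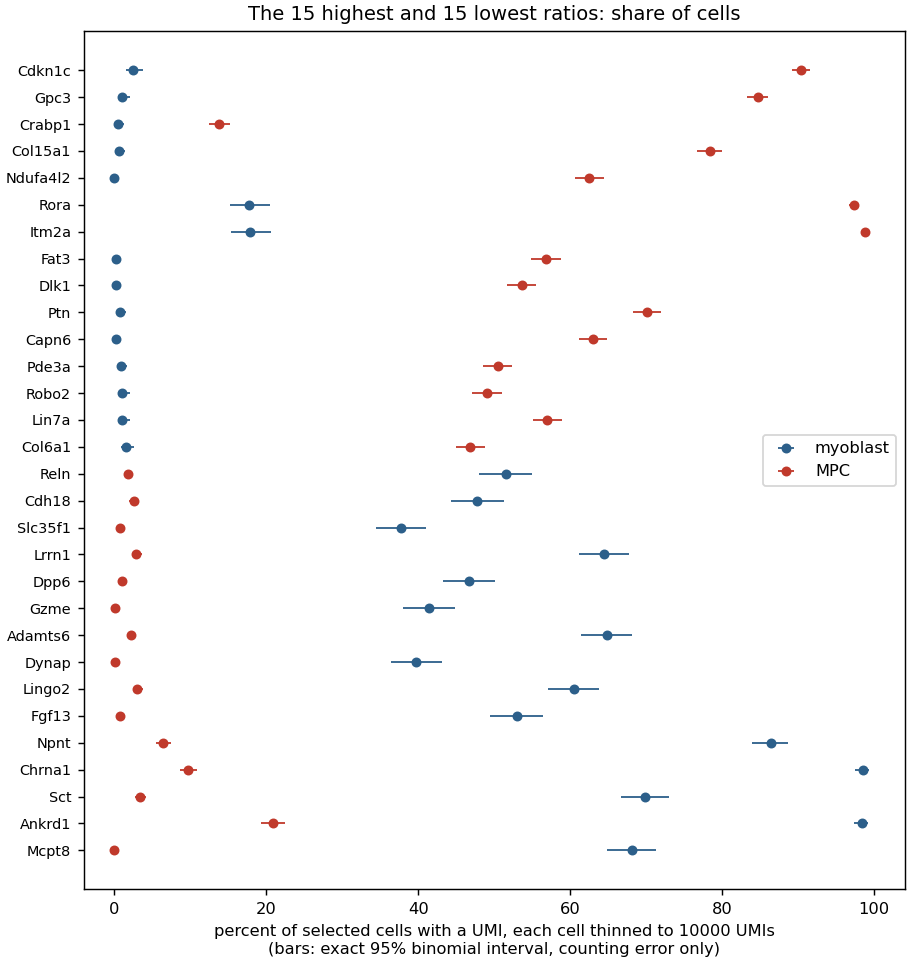
Percent of selected cells with at least 1 UMI of each of the 15 genes with the highest and the 15 with the lowest log2 ratio, after thinning every cell to 10000 UMIs (MPC red, myoblast blue; bars are exact 95% binomial intervals for counting error). In MPC, Cdkn1c, Rora and Itm2a were found in over 90% of cells, whereas Crabp1 was found in 13.8% despite its place among the highest ratios.

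In CPM, the largest differences towards myoblasts were those of genes abundant there. The secreted phosphoprotein gene Spp1 was at 446 CPM in MPC and 6563 in myoblasts, S100a6 at 1249 and 6407, Tmsb4x at 1302 and 4315, Tmsb10 at 1140 and 4038, Vim at 1177 and 3238 and Tpm1 at 431 and 2169. Spp1 was unevenly spread in MPC, where 41.5% of thinned cells held it and the top 10% of cells held 77.7% of its UMIs, while every thinned myoblast cell held it. Without MPC cells with 10 or more fibroblast-marker UMIs it was at 257 CPM (log2 ratio -4.65 in place of -3.86), and it was at 2649 CPM in the MPC cells with fibroblast markers and no Pax7. In the myoblast library, 15 cells with fibroblast markers and no Pax7 held Spp1 at 2819 CPM (80.0% of thinned cells). There, 327 differentiating cells, set by the same limits as above, held it at 1820 CPM (80.9%). How much of this is free RNA was not tested. Rora apart, the 10 largest differences towards MPC were all of ribosomal protein genes, led by Rps29 (8798 and 5938 CPM), none of them past 2-fold.

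Genes of the hypoxia response were higher in MPC as a group. Under low oxygen or inhibited prolyl hydroxylases, the HIF factors bind DNA and induce genes for glycolysis, mitochondrial turnover and angiogenesis. Of 27 measured HIF target genes, 21 were higher (77.8%), 1 was lower, and the median log2 ratio was 1.63, against 7.94% and 0.06 over all measured genes. Ndufa4l2, which encodes a paralogue of a respiratory chain subunit, was at 203 CPM in MPC with no UMI in myoblasts, at least 1570-fold higher. It was found in 62.5% of thinned MPC cells, and in 81.9% of the 127 thinned MPC cells with fibroblast markers and no Pax7 (443 CPM over the 140 before thinning). Bnip3, a receptor for removal of mitochondria, was at 245 and 15.2 CPM, and the mTOR inhibitor gene Ddit4 at 153 and 11.8 CPM. Carbonic anhydrase 9 (Car9) was at 49.4 and 1.17 CPM, Adm at 17.6 and 0.432, Vegfa at 119 and 40.7, and the oxygen sensors Egln1 and Egln3 at 122 and 38.7 and at 117 and 50.8 CPM. Cited2, which competes with HIF for a coactivator, went the other way at 43.3 and 254 CPM, and Plod2 (87.4 and 73.2) and Narf (10.8 and 8.08) lay nearest to no difference.

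The glycolytic list pointed the same way, with 10 of 23 measured members higher, 1 lower and 22 above a ratio of 0, at a median of 0.94. The lactate exporter Slc16a3 was at 115 and 1.25 CPM. Pdk1, a kinase that inhibits pyruvate dehydrogenase and a member of both lists, was at 67.8 and 4.23 CPM. Phosphofructokinase Pfkp was at 130 and 19.1, the glucose transporters Slc2a3 and Slc2a1 at 45.0 and 6.83 and at 61.5 and 13.7, and the highly expressed enzymes Tpi1 and Pgk1 at 645 and 175 and at 918 and 341 CPM. Aldoa (1140 and 579 CPM) and Ldha (938 and 549) lay above 0 but short of 2-fold. The exception was the muscle enolase Eno3, at 20.1 CPM in MPC and 373 in myoblasts, while the common enolase Eno1 was at 408 and 336. The lists of 24 TCA cycle enzymes and 43 nuclear genes of the respiratory chain held no called gene in either direction, at median log2 ratios of 0.23 and 0.18. Outside those lists, the respiratory chain subunit Cox4i2, singled out after its values were seen, was higher at 24.95 and 1.685 CPM. Citrate synthase (Cs) was at 131 and 129 CPM, for example.

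**Figure D3:**
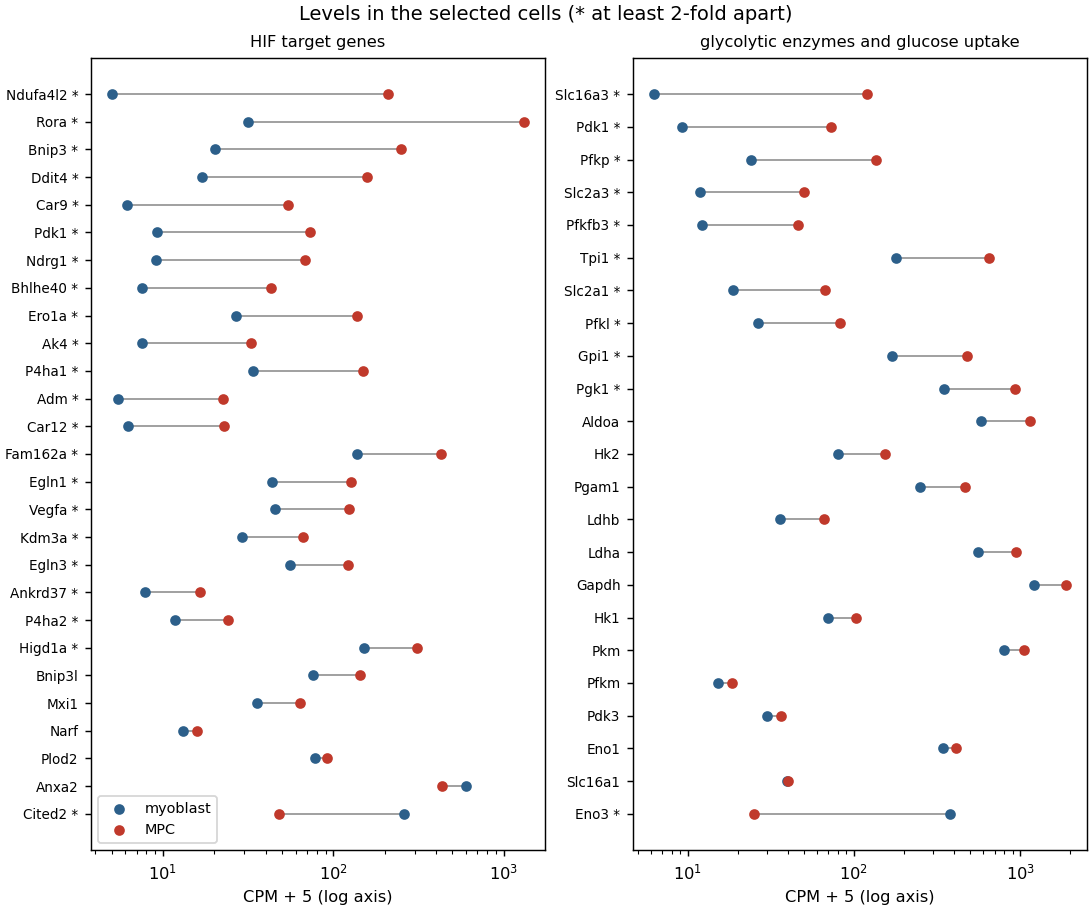
Levels of the measured HIF target genes (left) and of glycolytic and glucose uptake genes (right) in the selected cells of both cultures, as CPM + 5 on a log axis; grey lines join the values of a gene and asterisks mark a ratio of at least 2-fold. MPC (red) lay to the right of myoblasts (blue) for most members, with Cited2 and Eno3 as the members past 2-fold in the opposite direction.

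The core of the hypoxia response element, ACGTG, was searched on both strands in the 250 bases before the annotated start of each gene (RefSeq promoters of GRCm38.p6; the files carry no coordinates of their own). It was present for 13 of the 18 higher HIF genes that have a promoter entry (72.2%) and for 3 of the 4 other measured HIF genes with an entry. Over the 7512 measured genes with an entry the share was 26.4%. The member with the widest ratio among the matches, Rora, and the strongest classical target, Bnip3, are shown with the matches in capitals (ACGTG or its reverse complement CACGT, which overlap in the palindrome of Bnip3). Rora lies on chr9:68653536-68653785, plus strand, and Bnip3 on chr7:138909520-138909756, minus strand, each written in the direction of transcription and ending before the first annotated exon base.
Rora: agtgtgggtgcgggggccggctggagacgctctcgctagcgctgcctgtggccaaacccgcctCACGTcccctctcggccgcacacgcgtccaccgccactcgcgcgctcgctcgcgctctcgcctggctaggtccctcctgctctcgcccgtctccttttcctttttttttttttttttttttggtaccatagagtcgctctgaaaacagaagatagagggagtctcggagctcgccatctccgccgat
Bnip3: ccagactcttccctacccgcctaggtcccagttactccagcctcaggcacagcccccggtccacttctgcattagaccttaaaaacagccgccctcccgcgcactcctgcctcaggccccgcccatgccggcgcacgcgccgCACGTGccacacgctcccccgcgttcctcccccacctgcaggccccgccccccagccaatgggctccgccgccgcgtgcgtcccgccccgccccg
A match describes these letters and is not evidence of binding.

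In the lists of the actin cytoskeleton and of the force-responsive factors SRF and YAP, more genes were lower in MPC than higher. SRF, with its actin-sensing cofactors, drives genes for actin and stress fibres, and YAP, with the TEAD factors, responds to stretch and adhesion. Of 33 measured SRF, actin and stress fibre genes, 13 were lower and 1 higher (median log2 ratio -0.76), against 6.94% lower over all measured genes. This list does not hold the immediate early genes such as Fos and Egr1, which were higher in MPC and are given with their own list below. The regulatory light chain gene Myl9 was at 11.6 CPM in MPC and 154 in myoblasts, Tpm1 at 431 and 2169, the focal adhesion gene Zyx at 126 and 526, and Fhl2 at 12.0 and 55.3. Actb itself was at 2244 and 5254 CPM. Csrp2 was the one member called higher, at 116 and 29.3 CPM, and Cnn3 (271 and 268) and Tagln2 (371 and 393) were nearly level.

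Among 16 measured YAP target genes, 9 were lower and none was higher, at a median of -1.13. After Ankrd1, the widest ratios were those of Crim1 (9.61 and 91.4 CPM), the receptor kinase Axl (17.7 and 126) and Amotl2 (9.11 and 50.6), an inhibitor of YAP that is also its target. Ccn1 (46.0 and 67.8 CPM) and Tead1 (412 and 395) were under 2-fold.

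The CArG box, the binding sequence of SRF, occurred before the start of 4 of the 10 lower SRF list genes with a promoter entry (Actg1, Cnn2, Fhl2 and Myl9). It occurred for 3 of the 19 other measured members with an entry, against 1.56% of measured genes with one. The TEAD core CATTCC, searched on both strands, occurred for 6 of 8 lower YAP targets with an entry (Ajuba, Amotl2, Ankrd1, Axl, Crim1 and Ptpn14). It occurred for 1 of 3 other measured members with an entry, against 12.1% of measured genes with one. The windows of Myl9 (chr2:156775214-156775419, plus strand) and Fhl2 (chr1:43163962-43164211, minus strand) show the CArG box in capitals, and those of Axl (chr7:25788734-25788983, minus strand) and Ajuba (chr14:54577662-54577911, minus strand) the TEAD core or its reverse complement GGAATG.
Myl9: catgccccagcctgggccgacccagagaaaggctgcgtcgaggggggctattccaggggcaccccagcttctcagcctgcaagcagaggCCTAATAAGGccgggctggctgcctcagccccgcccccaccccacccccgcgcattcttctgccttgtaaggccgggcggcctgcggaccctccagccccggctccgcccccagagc
Fhl2: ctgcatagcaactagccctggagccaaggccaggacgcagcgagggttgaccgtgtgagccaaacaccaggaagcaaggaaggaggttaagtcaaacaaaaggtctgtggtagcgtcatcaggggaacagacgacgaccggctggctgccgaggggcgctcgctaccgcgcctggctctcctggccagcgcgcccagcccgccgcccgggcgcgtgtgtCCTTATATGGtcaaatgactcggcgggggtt
Axl: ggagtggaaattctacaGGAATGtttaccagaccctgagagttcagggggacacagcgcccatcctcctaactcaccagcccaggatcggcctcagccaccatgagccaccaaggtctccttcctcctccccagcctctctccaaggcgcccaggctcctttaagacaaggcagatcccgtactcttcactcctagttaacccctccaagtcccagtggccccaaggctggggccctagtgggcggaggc
Ajuba: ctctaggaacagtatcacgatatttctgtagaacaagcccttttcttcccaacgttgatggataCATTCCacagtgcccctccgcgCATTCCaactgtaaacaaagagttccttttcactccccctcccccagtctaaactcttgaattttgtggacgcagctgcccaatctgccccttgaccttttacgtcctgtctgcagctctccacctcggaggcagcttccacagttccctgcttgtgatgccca

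Targets of p53, the factor that halts the cycle or kills cells after damage, were lower as well: 11 of 21 measured members, with 1 higher and a median of -1.10. From this list on, counts are to be read beside 7.94% higher and 6.94% lower over all measured genes. Ccng1 was at 37.5 CPM in MPC and 196 in myoblasts, the pro-apoptotic genes Bax and Pmaip1 at 104.5 and 376 and at 3.88 and 27.1, and the inhibitor Cdkn1a (p21) at 161 and 350. Sesn1 was the higher member at 38.3 and 16.3 CPM.

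**Figure D4:**
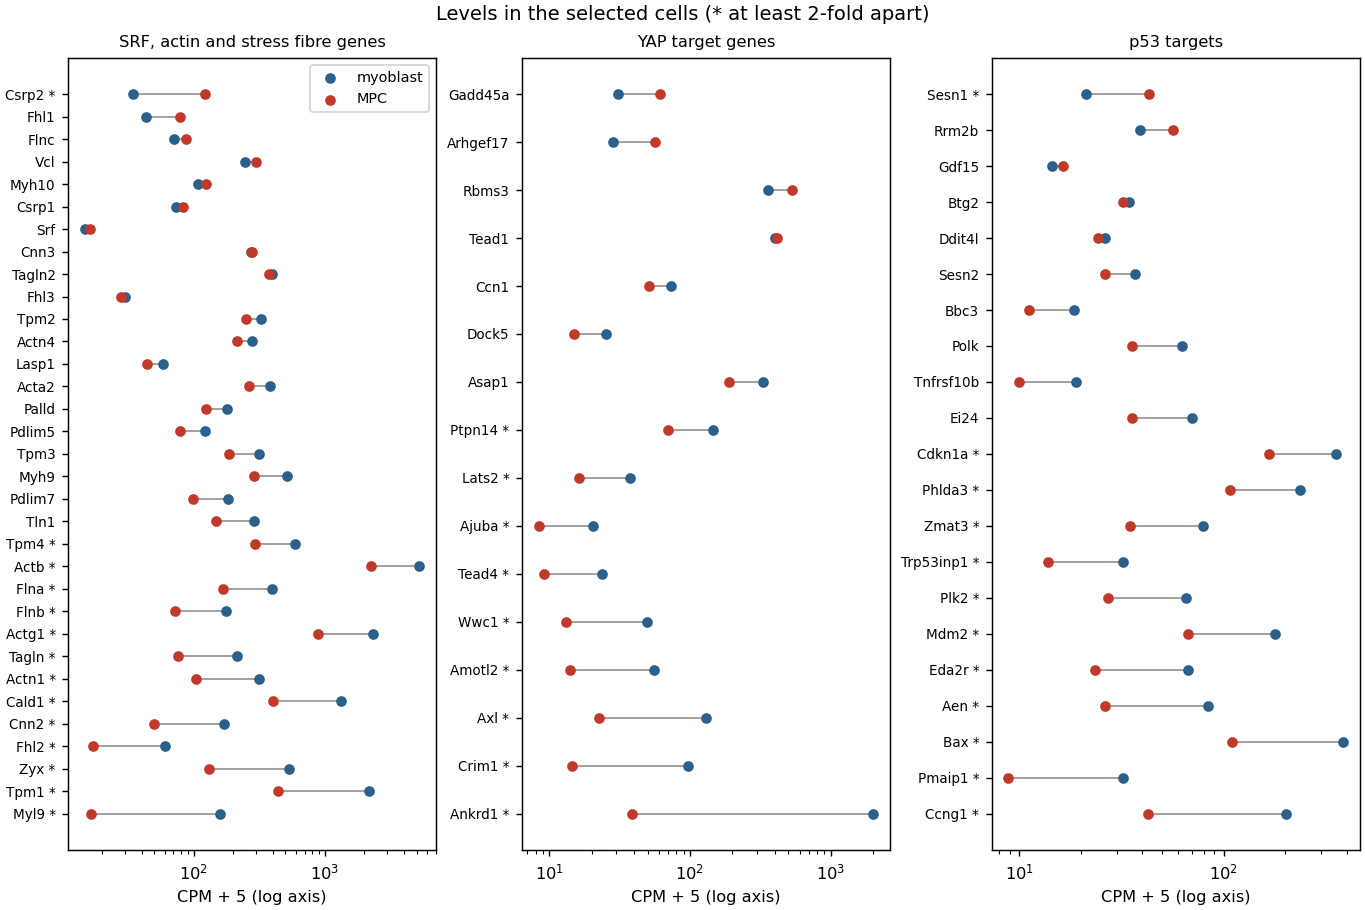
Levels of measured SRF and actin genes (left), YAP targets (middle) and p53 targets (right) in the selected cells, as CPM + 5 on a log axis; grey lines join the values of a gene and asterisks mark a ratio of at least 2-fold. MPC (red) lay to the left of myoblasts (blue) for 25 of 33, 12 of 16 and 18 of 21 members.

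The pathways that the 3 small molecules act on each gave a mixed picture. In the TGF-beta list, 11 of 23 measured members were lower and 6 were higher (median -0.64). Among the lower members, the target gene Thbs1 was at 4.94 CPM in MPC and 124 in myoblasts, the feedback genes Skil at 4.92 and 108, Pmepa1 at 19.2 and 228, and Smad7 at 10.3 and 58.7, with the latent TGF-beta binding gene Ltbp1 at 28.1 and 284. Among the higher members, the ligand gene Tgfb2 was at 167 and 15.6 CPM, the receptors Tgfbr3 at 26.8 and 1.73, Tgfbr1 at 114 and 43.9, Tgfbr2 at 85.7 and 32.6 and the signal carrier Smad3 at 50.7 and 16.2. Smad2 (82.8 and 78.6) and Smad4 (84.2 and 89.7) were nearly level.

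For cAMP, 9 of 33 measured members were higher and 5 lower (median 0.21), and 7 of the 9 were phosphodiesterases, the enzymes that degrade cyclic nucleotides. Pde4b was at 990.1 CPM in MPC and 75.05 in myoblasts, Pde10a at 534 and 103, Pde1a at 417 and 98.6, Pde7b at 206 and 31.5, Pde3b at 105.2 and 41.0 and Pde8a at 32.4 and 3.72, beside Pde3a above. Pde4d, at 742 and 768 CPM, was nearly level, and Pde1c was lower at 27.5 and 87.1. The cyclase Adcy2 was at 295 and 32.8 CPM, while Adcy7 was at 3.47 and 41.7. Pkia, an inhibitor of protein kinase A, was at 11.02 and 168 CPM, and the cAMP-inducible receptor Nr4a2 at 4.46 and 65.8. The core of the cAMP response element, TGACG, was searched on both strands. It lay before 4 of 7 higher members with a promoter entry, 10 of the 18 other measured members with one and 32.6% of measured genes with one.

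Of 17 measured Wnt genes, 7 were higher and 3 lower (median 0.71). The receptors Ror1 (87.5 and 3.24 CPM) and Fzd4 (84.6 and 10.8), the R-spondin receptors Lgr4 (33.2 and 10.1) and Lgr5 (17.0 and 3.85) and the feedback inhibitor Nkd1 (10.7 and 0.259) were among the higher ones. Lef1 (4.67 and 39.0), Tcf7l2 (116 and 240) and the target gene Ccnd1 (161 and 615) were lower. The feedback gene Axin2 stayed under the 10 CPM limit in both, at 4.59 CPM in MPC and 0.0432 in myoblasts.

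Genes known from quiescent satellite cells were higher in MPC although the cells compared were cycling ones. Of 22 measured members of that list, 14 were higher (63.6%) and none lower, with a median of 1.73. Besides Cdkn1c and Col15a1 they included the Notch effectors Heyl (97.0 and 1.94 CPM) and Hey1 (48.2 and 1.43), Notch3 (246 and 43.7), Gas1 (351 and 36.5), Fgfr4 (201 and 32.5), the dystroglycan gene Dag1 (304 and 60.1), Tenm4 (153 and 19.4) and the FGF feedback inhibitor Spry1 (33.2 and 6.01). Col5a3 was at 69.3 and 2.33 CPM. Hes1 (253 and 302) and Nfix (85.5 and 112) lay nearest to no difference. In the Notch list, 7 of 19 were higher and 2 lower (median 0.19, which turned to -0.01 with TMM scaling), Notch1 being at 155 and 41.3 CPM and Rbpj, the DNA-binding partner of Notch, at 172 and 193. Hes6, which counteracts Hes1, was lower at 25.8 and 177 CPM.

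Of 25 measured CDK inhibitors, cyclins and related genes, 5 were higher and 6 lower (median 0.39), and both inhibitor families held members in each direction. Besides Cdkn1c, the inhibitors Cdkn1b (60.6 and 20.0 CPM), Cdkn2c (45.8 and 20.3) and Cdkn2d (33.3 and 13.1) were higher in MPC, while Cdkn2a (35.8 and 220), Cdkn2b (1.72 and 29.5) and Cdkn1a were lower. The D-type cyclins Ccnd1 and Ccnd2 were at 161 and 615 and at 82.4 and 637 CPM, and their kinase Cdk6 at 77.8 and 288, whereas Cdk4 was at 214 and 227. In DNA replication genes 2 of 37 were higher and none lower, and in mitosis genes outside the selection rule 3 of 49 and none, at medians of 0.23 and 0.20. Both higher shares, 5.4 and 6.1%, lie below the 7.94% over all measured genes.

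Growth control genes subject to imprinting, which are expressed from 1 parental allele, were higher for 10 of 18 measured members and lower for 1 (Ndn, at 1.76 and 12.4 CPM), with a median of 1.09. Grb10, which restrains insulin and IGF receptors, was at 676 and 97.7 CPM, Igf2r at 218 and 52.97, Plagl1 at 357 and 171, Ppp1r9a at 178 and 18.4 and Igf2 at 28.98 and 6.31. Of 24 measured genes of the IGF and insulin list, 9 were higher and none lower (median 0.60). The binding proteins Igfbp5 (884 and 87.7 CPM), Igfbp4 (91.8 and 5.92), Igfbp3 (144 and 33.5) and Igfbp7 (176 and 62.5) were among them, as was the receptor Igf1r (870.5 and 252).

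In the list of nuclear receptors and retinoid genes, 11 of 16 measured members were higher and none lower, with a median of 1.39. Thyroid hormone receptor Thra was at 85.8 and 9.81 CPM, the retinoic acid receptor Rarb at 41.7 and 2.03, Nr2f1 at 76.9 and 9.81, Esr1 at 85.3 and 19.6 and the glucocorticoid receptor Nr3c1 at 55.5 and 19.9. Rarg (10.0 and 12.8) and Nr1d2 (29.4 and 32.0) were not called. The nuclear receptor Nr4a2, counted in the cAMP list and not in this one, was lower at 4.46 and 65.8 CPM. Crabp1, a cytoplasmic retinoic acid carrier, had 268 and 0.994 CPM, but the top 10% of MPC cells held 98.2% of its UMIs.

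Crabp1 is also one of the 12 fibroblast markers, and these moved with the culture; their part in the results below was not tested. Their summed level was 404 CPM in MPC and 26.3 in myoblasts, with 5 and 1 of them past 10 CPM and Tcf21 at 0 in both. Leaving out cells with 10 or more fibroblast-marker UMIs kept 2760 of 2904 MPC and 836 of 846 myoblast cells. In the cells that remained, Crabp1 was at 9.53 and 0.661 CPM, and Dcn, Mmp3 and Twist2, at 49.7, 48.4 and 26.2 CPM in MPC before, were at 2.55, 1.67 and 1.94. Dcn and Twist2 are also among the markers that set the cut, so the falls of Crabp1, Dcn and Twist2 follow from it. Mmp3 is not one of them. Col6a1, Col6a2 and Col6a3, at 133, 86.1 and 147 CPM before, were at 89.2, 43.5 and 71.9 CPM, with 1.32, 0.132 and 0.264 in myoblasts. Col8a1 (15.7 CPM before), Alcam (18.2) and Tgfbr3 (26.8) were at 8.29, 7.03 and 15.4 CPM in MPC. Col15a1 and Cdkn1c were at 258 and 1084 CPM. Of the mural markers, 5 of 8 passed 10 CPM in MPC and 2 in myoblasts, at sums of 384 and 70.5 CPM that include Notch3, while tenocyte markers summed to 25.6 and 42.7, and macrophage, endothelial, Schwann and adipocyte markers summed to at most 12.1 CPM in either culture.

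The matrix lists are read with those values beside them. Collagens were higher for 11 of 18 measured members and lower for 3 (median 1.27), and for 11 of 15 and 2 after the cells with fibroblast markers were left out. The basement membrane chains Col4a1 and Col4a2 were at 541 and 245 and at 337 and 148 CPM, and Col3a1 at 551 and 153, whereas Col8a1 (15.7 and 233) and Col5a2 (92.8 and 233) were lower. Among matrix proteases and their inhibitors, 14 of 25 were higher and 2 lower (median 1.46), or 12 of 24 and 2 (median 1.09) without those cells. Adamts9 was at 90.7 and 2.94 CPM, the gelatinase Mmp9 at 38.4 and 0.0864 and Adamts1 at 35.7 and 1.56, while the inhibitor Timp1 was at 129 and 548. Matrix glycoproteins divided into 11 higher and 7 lower of 34 (median 0.69). Lama4 (63.6 and 0.259 CPM), the fibrillin Fbn2 (59.4 and 1.56) and Edil3 (320.4 and 29.9) were higher, and Spp1, Npnt, Thbs1 and Ltbp1 were the lowest. Enzymes that process and crosslink collagen were higher for 6 of 16 and lower for 1, including P4ha1 (143 and 28.9) and Loxl2 (124 and 28.1), with Pcolce2 lower at 12.2 and 96.7.

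Signalling molecules showed both directions. Here and in the lists that follow, counts stand beside 7.94% higher and 6.94% lower over all measured genes. In the list of immediate early and Kruppel-like factors, 8 of 24 were higher and 3 lower (median 0.48). Fos was at 121 and 6.26 CPM, Egr1 at 507 and 89.4, Junb at 131 and 49.8 and Klf9 at 122 and 19.1, while Klf2 was at 2.80 and 57.3, Klf4 at 15.1 and 50.5 and Fosl1 at 28.98 and 81.3. Targets of NF-kB were higher for 5 of 11 and lower for none, led by Bcl3 (47.0 and 4.15) and Ier3 (70.7 and 17.2). Of 28 cytokine and chemokine genes, 12 were higher and 7 lower. Socs3 (49.7 and 1.17) and the oncostatin M receptor Osmr (37.2 and 1.38) stood beside Ptn, and the chemokine Cxcl12 (0.166 and 67.4) and the macrophage growth factor Csf1 (27.0 and 310) were at the other end. In the list of PDGF, VEGF, HGF and KIT signalling, 4 of 16 were higher and 4 lower, with the PDGF receptor Pdgfrb, itself a mural marker, at 60.8 and 2.03 CPM and the HGF receptor Met at 36.3 and 133. The MAPK phosphatases Dusp4 (9.59 and 48.9) and Dusp5 (8.18 and 55.1) and the EGF-family ligand Hbegf (6.08 and 53.6) were lower, as members of a list with 3 of 21 higher and 5 lower.

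Adhesion, guidance and excitability families held members in both directions. In the integrin list 3 of 13 were higher and 4 lower, with Itga4 (27.2 and 3.89 CPM) and Itga1 (19.2 and 1.86) against Itga6 (44.2 and 249) and Itga3 (1.83 and 38.8). Among adhesion molecules of the immunoglobulin family, 6 of 17 were higher, such as Bcam (58.8 and 3.98), and 5 lower, such as Alcam (18.2 and 302). The guidance list had 7 of 32 higher and 9 lower (median 0.23), with Rgma (66.7 and 6.14) and Sema3e (111 and 678) as examples. Of 17 channel genes, 3 were higher and 6 lower. The potassium channel Kcnma1 was at 34.1 and 1.12 CPM. G protein-coupled receptors included the lysophospholipid receptors Lpar4 (95.3 and 4.41), S1pr1 (46.7 and 2.07) and S1pr3 (34.6 and 0.389) among 8 higher of 27, beside 9 lower. Of neural-type genes 8 of 29 were higher, such as Map2 (115 and 7.48) and Nrxn3 (148 and 12.9), and 6 lower, such as Dpysl3 (73.3 and 523).

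In lipid metabolism 6 of 21 were higher and 2 lower (median 0.68), led by lipoprotein lipase Lpl (154 and 10.0 CPM), with Ppargc1a, a driver of mitochondrial genes, at 0.727 and 14.5. The metallothioneins Mt2 (260.4 and 39.5) and Mt1 (439 and 152) were higher. Genes of NRF2 and glutathione defence were lower for 8 of 31 and higher for 2 (median -0.05). Glutathione peroxidases Gpx1 and Gpx3 were at 101 and 316 and at 6.87 and 45.9, and Mgst1 at 49.1 and 3.02. Heat shock genes were lower for 4 of 20 with none higher, the small chaperones Hspb1 (46.8 and 309) and Cryab (17.3 and 149) in particular, while Hsp90ab1 was at 3524 and 3340. Genes of ribosome production and ribosomal proteins went apart: 29 of 31 ribosome biogenesis genes lay below a ratio of 0 (median -0.59, 3 past 2-fold), and 32 of 33 ribosomal protein genes lay above it (median 0.45, none past 2-fold). The 3 lower ribosome biogenesis genes are 9.7% of that list, near the 6.94% over all measured genes. Rn18s, the 18S RNA, was at 3266 and 7251 CPM.

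**Figure D5:**
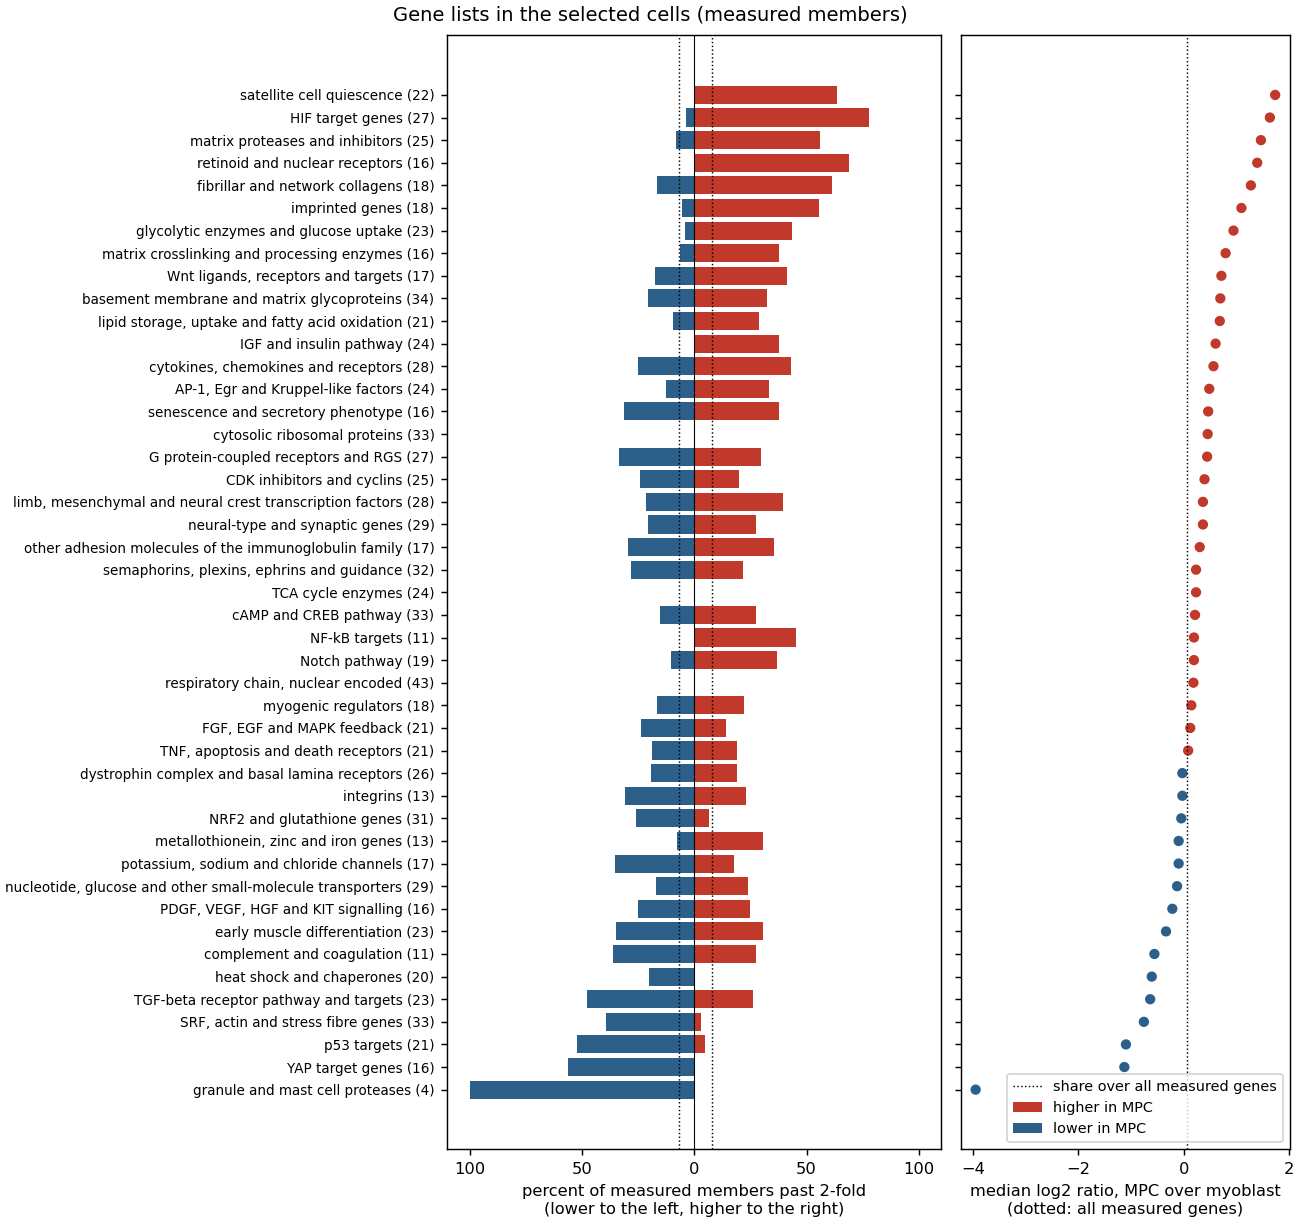
Left, percent of the measured members of 45 gene lists past 2-fold, higher in MPC to the right (red) and lower to the left (blue), with dotted lines at 7.94 and 6.94%, the shares over all measured genes; the number of measured members is in parentheses. Right, median log2 ratio of each list, with the dotted line at 0.06, the median over all measured genes. Satellite cell quiescence and HIF target genes had the highest medians, and the 4 granule and mast cell proteases, YAP targets and p53 targets the lowest.

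Among transcription factors of muscle, Myod1 was at 45.8 CPM in MPC and 403 in myoblasts, in 29.6 and 91.5% of thinned cells, and Myf5 at 70.1 and 26.4 CPM. Msc (29.3 and 0.130), Mef2c (84.0 and 8.81) and Eya1 (155 and 31.1) were higher. Of the developmental regulators of limb, mesenchyme and neural crest, 11 of 28 were higher and 6 lower. Nfia was at 1104 and 176 CPM, Foxp2 at 97.5 and 4.02, Sox5 at 109.5 and 7.48 and Tbx3 at 68.1 and 9.51, and Runx2 was lower at 49.4 and 209, as were Lbx1 (0.685 and 21.8) and Scx (1.68 and 39.0).

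The list of early differentiation held 7 of 23 higher and 8 lower. Ttn was at 47.2 and 417 CPM and Tnnt2 at 21.1 and 192. On the higher side, Actc1 was at 134 and 11.8 CPM and was found in 64.1 and 10.6% of thinned cells, and Tnnc2 at 58.3 and 10.0 CPM in 40.3 and 9.36%. The MPC library also held differentiating cells rich in these transcripts (Actc1 at 3975 CPM in the 1527 differentiating cells above). In the 127 thinned MPC cells with fibroblast markers and no Pax7 or Myog, Actc1 was found in 43.3% (34.5 to 52.4%), Tnnc2 in 33.1% (upper bound 42.0%) and Acta1 in 54.3% (45.3 to 63.2%). Acta1 was found in 58.6% of the selected cells. Median depths before thinning were 17689 UMIs in the 140 such cells and 14790.5 in the selected cells. Whether such cells make these genes themselves was not tested. The shares of Tnnc2 and Acta1 in the selected cells lay within those intervals, while their levels were 58.3 and 99.6 CPM against 40.7 and 70.7 in the 140 such cells before thinning. The share of Actc1 lay above its interval, as did that of Myl1, at 61.6% against 49.6% (40.6 to 58.6%). The part of free RNA in these values was not tested. The summed differentiating myocyte markers were at 474 CPM in the selected MPC cells and 855 in the selected myoblasts. Leaving out cells with 10 or more of these UMIs kept 2212 MPC and only 205 myoblast cells, and there Ttn was at 27.5 and 84.2 CPM, and Actc1 at 91.7 and 8.44. In those cells Tnnt2 was at 83.8, Dpp6 at 76.0 and Igfbp5 at 43.1 CPM in myoblasts, and Pde1c, at a log2 ratio of -0.81 in place of -1.50, was no longer past 2-fold. Ttn, Actc1 and Tnnt2 are themselves among the markers that set this cut, so their lower levels after it follow from it. The cut was not scaled to depth, and the median selected cell held 6 of these UMIs in MPC and 18 in myoblasts.

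Components of the dystrophin complex and basal lamina receptors were higher for 5 of 26 and lower for 5. The caveola genes Cav1 (161 and 15.9 CPM) and Cavin3 (154 and 29.5) were higher, and the muscle-specific Cavin4 (5.999 and 44.9) was lower.

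Several paralogue pairs gave a different share to each partner in the 2 cultures. Of the UMIs of Gpc3 and Gpc4 together, Gpc4 made up 4.53% in MPC (exact binomial interval 4.28 to 4.78%) and 95.8% in myoblasts (94.2 to 97.0%). Of the lactate transporters Slc16a1 and Slc16a3, the second made up 76.7 and 3.51%, with Slc16a1 at 34.9 and 34.5 CPM. Pdk4 made up 9.73 and 76.3% of Pdk1 plus Pdk4, and Eno3 4.69 and 52.6% of Eno1 plus Eno3. Pde4d made up 42.8 and 91.1% of Pde4b plus Pde4d, Bnip3l 36.1 and 82.4% of Bnip3 plus Bnip3l, and Notch3 74.7 and 46.5% of Notch2 plus Notch3. Ndufa4l2 made up 29.4% of Ndufa4 plus Ndufa4l2 in MPC and 0% in myoblasts (upper bound 0.0205%), where Ndufa4 was at 779 CPM against 487 in MPC. Of the cadherins, Cdh2 was at 42.6 CPM in MPC and 534 in myoblasts and Cdh11 at 35.9 and 82.8, so that Cdh11 made up 45.7 and 13.4%. Without cells with 10 or more fibroblast-marker UMIs, Cdh11 was at 17.6 CPM in MPC and made up 32.4 and 12.9% of the pair, a shift under the 20 points used to name pairs. Not every pair shifted: Aldoc was under 0.1% of the aldolase pair and Pax3 was 0.846 and 0.887% of Pax7 plus Pax3. Shares use 3' UMIs, which are not scaled to length.

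The ratios were also read within parts of the selected cells. When both cultures were split by UMIs per cell, Pax7 UMIs, cycling-gene UMIs or the lean towards S or G2/M genes, at least 271 of the 272 named and called genes kept their direction in each of 11 strata, and 252 to 268 kept a 2-fold ratio. These genes were named for their ratios in the same cells, so the strata are no independent check. The myoblast side held only 59 cells under 15000 UMIs and 81 with 3 to 14 Pax7 UMIs. Cdkn1c, for instance, had log2 ratios of 6.78 in cells under 15000 UMIs and 6.79 in those with 25000 or more. It was at 1060 and 3.19 CPM in S-leaning and 983 and 2.94 in G2/M-leaning cells. In Pax7-positive, Myog-negative cells with at most 1 cycling-gene UMI (996 MPC and 448 myoblast cells), 907 genes were higher and 842 lower, of which 625 and 575 were also called in the cycling cells, and no gene was called in opposite directions.

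Comparing all filtered cells of the cultures instead called 651 genes higher and 603 lower. Of the genes called in the selected cells, 575 higher and 512 lower ones were called there too, and 168 and 137 were not. A single gene was called in opposite directions. Car3, the muscle carbonic anhydrase, was at 121 and 34.9 CPM in the selected cells and at 219 and 560.0 CPM over all cells, a name singled out after its values were seen.

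In activated satellite cells from injured muscle that met the same rule, the levels of the leading genes are given without comparison. Cdkn1c was at 14.7 CPM there, Gpc3 at 2.02, Rora at 36.9, Bnip3 at 10.6 and Slc16a3 at 3.42, and on the other side Ankrd1 was at 328, Mcpt8 at 5.60, Sct at 1.22, Chrna1 at 262 and Eno3 at 551 CPM.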

How the data were processed

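The values the authors deposited were UMI counts for each gene in each barcode, not normalized. The aligner was STAR 2.7.10b with GRCm39, per the submitters' processing notes; UMI collapsing, cell calling and gene annotation are not given in the sources used here. Features with the same symbol were summed. The labels give 1 library per culture and do not say whether both came from the same mouse. Cells were selected by the rule in the report, UMIs summed, scaled to CPM, and ratios taken with 5 CPM added. The genes used for selection, mitochondrial genes and the reporter are in no count. Named genes were the 15 highest and 15 lowest ratios among genes with at least 50 CPM and a UMI in at least 10% of cells, the largest CPM differences, up to 4 called members of a list in each direction with 2 near no change, and paralogue pairs shifting by at least 20 points; further list members are named for their role, and some genes that met the rule are not reported here. Members and lists were chosen with earlier results of these data known. Alternatives used edgeR 4.0.16 (TMM factors), scanpy 1.11.5 (Scrublet) and thinning; Scrublet's automatic threshold marked 0.0101% of MPC and 0.332% of myoblast cells, so the main selection kept all cells and the alternative removed the top scores at the expected rate, 796 and 52 cells. The ratio script was tested on simulated data. Promoters are from RefSeq (GRCm38.p6), matched by symbol for 7512 of 9354 measured genes.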

Additional observations from a re-analysis of the deposited data

How the results depend on the processing

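With 21 alternative settings, the counts of 743 higher and 649 lower genes stayed within 1.5 times except in 2. With 20 CPM added in place of 5 they were 416 and 356, and with at least 50 CPM required in the higher culture they were 386 and 362; the first shrinks every ratio of a low gene and the second tests 4261 genes. The split between directions changed with scaling: higher genes were 53.4% of calls, 48.8% with TMM factors (678 and 712) and 48.1% with median-of-ratios factors (672 and 726), where the median of all genes shifted by -0.07 and -0.08. It was 48.3% (710 and 760) when cells needed 2000 UMIs and at most 5% mitochondrial UMIs, which left 192 myoblast cells. None of the 272 named and called genes changed sign under any of the 21 settings. This says little, since settings that alter only the added CPM or the CPM limit cannot change a sign. Scaling moved ratios far less than the 2-fold by which these genes were called. The medians of HIF target genes (1.09 to 1.97), glycolysis (0.82 to 1.10), quiescence (1.02 to 2.30), SRF (-0.91 to -0.58), YAP (-1.27 to -0.71) and p53 targets (-1.23 to -0.75) kept their sign, whereas the medians of 15 of the 45 lists described, such as Notch (-0.02 to 0.41) and early differentiation (-0.79 to 0.24), took both signs. No paired analysis was possible because there was 1 library per culture. For the same reason no library could be left out, and the spread between cultures of one kind is not known. Depth sets the floor of 3 counts at 0.0623 CPM in MPC and 0.130 in myoblasts.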

Other observations

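The genes of the widest ratios that belong to none of the 72 lists are given as values; they were picked by rank among genes with at least 50 CPM after the ratios were seen. On the MPC side, after Itm2a, Capn6 and Lin7a, came Gulp1, an adaptor for engulfment of dying cells (231 and 6.44 CPM), the collagen chain Col6a6 (90.1 and 0.173), the surface protease Fap (88.0 and 0.518), the kinase Nrk (122 and 3.63), the pyrimidine-degrading enzyme Dpyd (251 and 13.1) and the cGMP-dependent kinase Prkg1 (674 and 50.5). On the myoblast side stood Srpx2 (0.955 CPM in MPC and 86.2 in myoblasts), the secreted Tafa5 (3.49 and 121), Dock8 (1.95 and 92.8), Anxa3 (9.03 and 129), Asb5 (27.9 and 241) and the Ras regulator Rasa1 (84.5 and 643).

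Some genes that were lower in MPC were spread unevenly over its cells. Hmga2, a chromatin architectural gene of growing and fetal cells, was at 241 CPM in MPC and 1550 in myoblasts, and after thinning 863 MPC cells held at least 1 UMI and 1665 held none, against 831 and 2 in myoblasts. In MPC, Spp1 was found in 69.1% of the cells with Hmga2 (65.9 to 72.1%) and in 27.1% of those without (up to 29.4%), Runx2 in 39.4 and 11.9%, Ccnd2 in 37.4 and 17.9% and Ccnd1 in 77.4 and 56.2%. The reverse was seen for Gpc3, in 69.3 and 92.7%, for Dlk1, in 40.3 and 60.5%, and for Cdkn1c, in 84.8 and 93.3%. Not all genes followed this division: Cdkn2a was found in 9.73 and 20.5%, and Myod1 in 23.5 and 32.8%. Leaving out cells with 10 or more fibroblast-marker UMIs kept 731 of the 863 cells with Hmga2 and 1656 of the 1665 without, so most of those left out held Hmga2. The shares were then 63.6 and 27.0% for Spp1, 32.3 and 11.8% for Runx2, 29.1 and 17.5% for Ccnd2 and 75.2 and 92.8% for Gpc3. Those of Dlk1 were 45.3 and 60.6%, and those of Cdkn1c came closer, at 89.2 and 93.3%. The division was chosen after the uneven spread of Hmga2 was seen, a single UMI is a loose limit, and the intervals cover counting error only.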
